A study of Zea mays with 4 samples.

Results

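Core histones are the proteins around which nuclear DNA is wound, and 6 maize genes for them were followed here among the 48174 genes of a root tip transcriptome. The genes were taken by their NCBI gene numbers, which RefSeq's gene table for Zm-B73-REFERENCE-NAM-5.0 pairs with names: his2a1 (GeneID:103639303) for H2A, his2b2 (GeneID:100193014), his2b5 (GeneID:542301) and histone2b1 (GeneID:100273030) for H2B, H3C2 (GeneID:100192589) for H3, and H4C7 (GeneID:100192931) for H4. All 6 are listed as protein coding. They are the named members of larger families, so a class is represented here by 3 genes for H2B and by 1 gene each for H2A, H3 and H4.

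The series holds 1 group of 4 libraries, labelled biological replicates 1 to 4. Each was made from total RNA of the terminal 1 mm of the roots of B73 seedlings, the inbred line of the maize reference genome. Primary and seminal roots were collected together. Seedlings were 3 days past germination and were kept for 2 h in water at 28 °C, swirled for aeration, and the tips were then cut. Every group member therefore shares the water treatment, and no untreated group, second genotype or second time stands beside it. The comparisons below are between histone genes, between replicates, and between the histone genes and the rest of the transcriptome. The sources used here do not say if the replicates came from separate seed lots, and the spread reported may be technical.

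A nucleosome is built from a central H3 and H4 tetramer flanked by pairs of H2A and H2B, and the DNA between nucleosomes is bound by linker histones. Cells that copy their DNA need new histones to package it, and most core histone transcripts are made during S phase, the phase of DNA synthesis. A root tip holds the meristem, where cells divide, and histone transcripts are widely used to mark dividing cells there. Plant genomes carry many copies of each core histone gene, with H3 and H4 proteins that are almost the same from copy to copy.

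Library totals were 23385589 to 26829395 counts, and the scaling factors estimated by TMM, a trimmed mean method, were 0.996 to 1.00. Levels are given as CPM, which is counts scaled to a library total of 1000000. A gene with no count may still lie below 0.112 to 0.128 CPM, the level of 3 counts in these libraries, for counting error only. Of 6 genes named as root tip markers 2 were detected, meaning at 1 CPM or more in every library: the SCARECROW gene SCR at 40.3 CPM and the auxin carrier gene PIN1a at 197 CPM. The list's other genes were rtcs, with no count, wox5B at 1.00 CPM, and plt1 and plt2 at 0.06 and 0.05 CPM, names that maize also gives to lipid transfer genes. The 9 green leaf markers summed to 0.932 to 1.45 CPM per library and the 16 seed markers to 0.684 to 1.44 CPM, with 4 and 13 of these genes at 0 counts. The 4 secondary wall markers summed to 3.75 to 5.26 CPM, and 1 of them, lac3, was detected, at 3.78 CPM.

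All 6 core histone genes were detected, against 43.5% of all genes. They summed to 1627, 1659, 1695 and 1670.5 CPM in replicates 1 to 4, a mean of 1663 ± 28.1 CPM (SD, n = 4) or 0.166% of all counts. The highest library stood at 1.92% above that mean and the lowest at -2.15%. In read counts, not per length, each gene was above the median of the 22752 genes kept by the expression filter, which was 15.3 CPM. By mean CPM, again not per length, they ranked between 264 (his2b2) and 4410 (H3C2) of all genes.

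**Figure D1:**
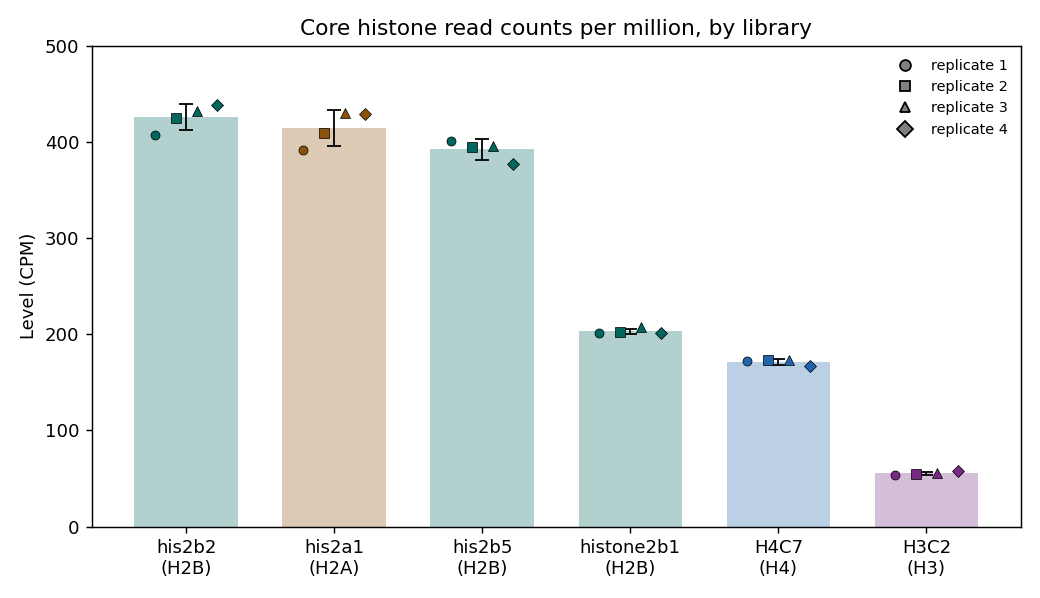
Level in CPM (vertical axis, from 0) of the 6 core histone genes, with bars for the mean of 4 libraries, error bars for 1 SD, and symbols for replicates 1 to 4. The libraries of his2b2, his2a1 and his2b5 lie between 377 and 438 CPM. Those of his2a1 overlap both other genes, while his2b2 (408 CPM or more) lies above his2b5 (402 CPM or less). H3C2 is lowest with a mean of 55.3 CPM.

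For H2A, the partner that dimerises with H2B, his2a1 stood at 391, 409, 430.5 and 429 CPM in replicates 1 to 4. Its mean was 415 ± 18.7 CPM (SD, n = 4), from 9915 to 11550 counts per library. Replicate 1 was lowest, at -5.72% from the mean, and replicates 3 and 4 lay 3.74% and 3.44% above it. This was the largest relative spread of the 6 genes, a coefficient of variation (CV, SD over mean) of 4.50%, where counting error alone gives 0.981%. In these bulk samples fewer cells with a transcript and less transcript per cell cannot be told apart.

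For H2B, his2b2 stood at 408, 425, 432 and 438 CPM in replicates 1 to 4, a mean of 426 ± 13.3 CPM (SD, n = 4). The paralog his2b5 stood at 402, 395, 395 and 377 CPM, a mean of 392 ± 10.5 CPM. These genes were highest in opposite libraries: replicate 1 held the lowest his2b2 and the highest his2b5 value, and replicate 4 the highest his2b2 and the lowest his2b5 value. The third H2B gene, histone2b1, stood at 201, 202, 207 and 202 CPM, a mean of 203 ± 2.88 CPM. Its replicates 1, 2 and 4 lay within 1% of the mean, on the low side, and replicate 3 was 2.11% above it.

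For H4, which sits with H3 at the centre of the nucleosome, H4C7 stood at 172, 173, 174 and 167 CPM, a mean of 171 ± 3.28 CPM (SD, n = 4). Replicate 4 was lowest, at -2.82% from the mean, and the other libraries lay within 1.24% above it. For H3, H3C2 stood at 53.3, 54.7, 55.8 and 57.6 CPM, a mean of 55.3 ± 1.81 CPM. Its highest library was replicate 4, at 4.07% above the mean, and its lowest was replicate 1, at -3.69%. H3C2 also had the fewest counts, 1327 to 1496 per library, so counting error alone gives it a CV of 2.68%.

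**Figure D2:**
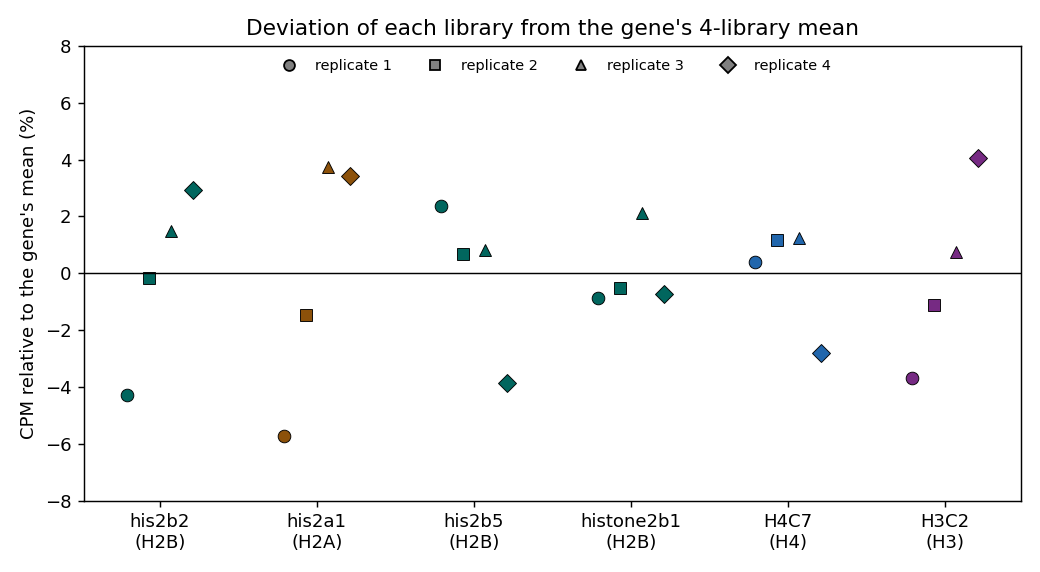
Difference of each library from the gene's own mean over 4 libraries, in percent of that mean (vertical axis), for the 6 genes, with a symbol for each replicate. Replicate 1 is lowest for his2b2, his2a1, histone2b1 and H3C2, while replicate 4 is lowest for his2b5 and H4C7.

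The 6 genes did not share 1 pattern over the libraries. Replicate 1 was lowest for 4 of them, for histone2b1 close to replicate 4, and replicate 4 for the other 2. Of all 22752 genes tested, 22.7% were lowest in replicate 1 and 25.7% in replicate 4. Replicate 3 was highest for his2a1, histone2b1 and, close to replicate 2, H4C7. Replicate 4 was highest for his2b2 and H3C2, and replicate 1 for his2b5. Of all genes tested, 25.8%, 23.4% and 26.8% were highest in replicates 3, 4 and 1. The order of libraries is not resolved for histone2b1, H3C2 and H4C7, which showed no detectable variation beyond counting error. Every library lay within 6% of each gene's mean.

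Ratios between genes were taken within each library. Exon lengths were not used here, and a longer transcript gives more reads, so these are ratios of read counts, not of transcript numbers per cell. Length is constant for a gene, however, so the spread of a ratio over libraries does not depend on it. His2b2 over his2a1 was 0.04 on the log2 scale, and the ratio over the libraries had an SD of 0.02 (n = 4), higher for his2b2 in 4 of 4 libraries. An exact permutation test, two-sided and made by flipping signs over libraries, gave p = 0.125, which is 2 of 16 sign patterns and the smallest that 4 libraries allow. Of the 15 pairs among the 6 genes, 14 kept 1 direction in all 4 libraries and gave this same smallest p. The other pair was his2a1 over his2b5, with log2 ratios of -0.04, 0.05, 0.12 and 0.19 in replicates 1 to 4, a mean of 0.08 ± 0.10 and an exact permutation p = 0.25. No p below 0.05 can be had from 4 libraries, so this test resolves the order of none of the 15 pairs.

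Of the 15 pairs, his2a1 over his2b5 had the largest SD of the log2 ratio over the libraries, 0.10 (n = 4), where counting error alone gives 0.02. It was followed by his2b5 over H3C2, with a mean of 2.83 and an SD of 0.08, where counting error gives 0.04. The smallest SD was that of his2b2 over H3C2, whose log2 ratio of 2.94 had an SD of 0.01, and counting error alone gives 0.04. His2b5 over H4C7 had a log2 ratio of 1.19 with an SD of 0.02, where counting error gives 0.03. The SDs of these last pairs lie below the counting error, so they show no steadiness beyond what counting allows to be seen.

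**Figure D3:**
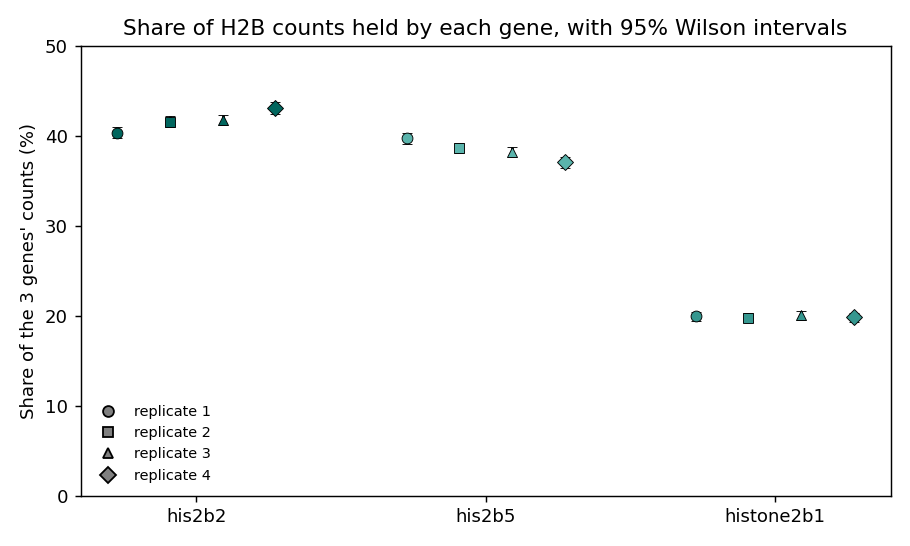
Share of the counts of the 3 H2B genes held by each (vertical axis, percent, from 0), with a symbol for each replicate and 95% Wilson intervals for counting error. The his2b2 and his2b5 shares differ between replicates 1 and 4 by more than their intervals, and all 4 histone2b1 shares lie near 20%.

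Within H2B, his2b2 held 40.3%, 41.6%, 41.8% and 43.1% of the 3 genes' counts in replicates 1 to 4, a mean of 41.7 ± 1.13% (SD, n = 4). His2b5 held 39.7%, 38.6%, 38.2% and 37.1%, a mean of 38.4 ± 1.10%. For his2b5 the 95% Wilson interval was 39.1% to 40.3% in replicate 1 and 36.5% to 37.7% in replicate 4. These libraries, the highest and the lowest, differed by more than counting error if each read is an independent molecule. The gene histone2b1 held 19.9%, 19.8%, 20.0% and 19.8%, a mean of 19.9 ± 0.118%, and its 4 intervals overlapped. His2b2 and his2b5 departed from their means in opposite directions in replicates 1 and 4. The summed H2B level was steadier than either gene, at 1010.5, 1022, 1035 and 1017 CPM and a CV of 1.02%. A sum of genes can be steadier than its parts without any link between them, and a link was not tested. The CV was 3.12% for his2b2, 2.68% for his2b5 and 1.42% for histone2b1.

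Between classes, as read counts and not per length, the 3 H2B genes together gave 2.46 ± 0.0964 times the counts of his2a1 (SD, n = 4). The ratio was 2.58, 2.50, 2.40 and 2.37 in replicates 1 to 4. They gave 5.96 ± 0.106 times the counts of H4C7 and 18.5 ± 0.562 times those of H3C2. His2a1 gave 2.42 ± 0.134 times the counts of H4C7, and its ratio to H3C2 ran from 7.34 to 7.72. H4C7 gave 3.10 ± 0.147 times the counts of H3C2. Each of these 6 ratios was above 1 in 4 of 4 libraries, with an exact sign-flip permutation p = 0.125, so none could pass 0.05. The H2B to H2A ratio turns with the number of genes summed: the mean of the 3 H2B genes was below his2a1, at -0.28 on the log2 scale.

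The H3 and H4 values are uncertain as levels, and if they are more so than those of H2A and H2B was not tested. The gene table lists 3 histone gene names under H3C2, and 3 gene names and 3 older gene models under H4C7. Reads from near-identical copies elsewhere in the genome could have been split, assigned to 1 copy or dropped, and the sources used here do not say how they were counted. Of the 24 values of the 6 genes, 23 were whole within a tolerance of 0.001, and the exception was his2a1 in replicate 4, at 10038.5 counts. The added 0.5 is 0.00498% of that count. Of all genes with a count, 11.3% had a non-whole value in at least 1 library, against 1 of the 6 core histone genes. No core histone gene overlapped its neighbours in the gene table. A neighbour of his2a1, LOC103639304, stood at 386 ± 9.27 CPM (SD, n = 4), highest in replicate 1 where his2a1 was lowest. Of the 4141 other genes in the abundance range of the core histone genes, 30.6% were also highest in replicate 1. Sharing of reads between these neighbours was not tested.

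Variation between replicates was then set against that of other genes. The counts of 3 of the 6 genes varied beyond Poisson counting error (chi-square test on TMM-scaled libraries, Benjamini-Hochberg adjusted over 22752 genes), against 25.7% of all genes tested and 55.5% of the 4141 other genes whose mean lay between the lowest and the highest of the 6. The 3 were his2a1, his2b2 and his2b5, whose CVs were 4.58, 3.22 and 2.66 times that of counting error. For histone2b1, H3C2 and H4C7 the multiples were 1.01, 1.22 and 1.25, and no variation beyond counting was detectable at this depth. The call on his2b2 was lost without replicate 1 and that on his2b5 without replicate 4, which left 2 of 6 genes called in each case. His2a1 was called without each library in turn.

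**Figure D4:**
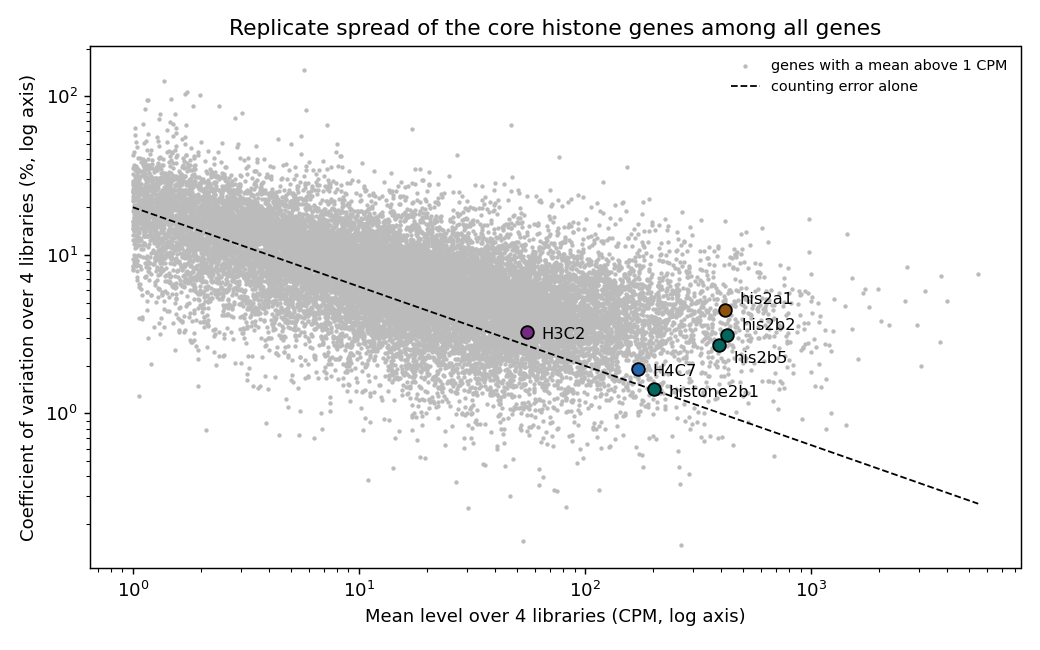
CV over 4 libraries (vertical log axis, percent) against mean level (horizontal log axis, CPM) for genes with a mean above 1 CPM, in grey, and for the 6 core histone genes, in colour. The dashed line is the CV that counting error alone gives, and histone2b1 lies on it at 1.42%.

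None of the 6 genes varied more than genes of equal abundance (edgeR quasi-likelihood dispersion against its trend, adjusted p = 0.994 to 0.999), against 0.0396% of all genes. None did so at an unadjusted p under 0.05, as 1352 of the 22752 genes tested did. DESeq2 marked 0 of the 6 as dispersion outliers, against 0.765% of all genes tested. At shares this low, the lack of a call among 6 genes says little about them. The dispersion was below the trend for 5 of the 6, against 56.4% of all tested genes. On the log2 scale its distance from the trend was -2.61 for histone2b1, -2.45 for H4C7, -1.54 for his2b5, -0.80 for H3C2, -0.52 for his2b2 and 0.46 for his2a1, against a median of -0.22 over all tested genes. Among genes within 1.2 times its own mean, the CV was lower than that of histone2b1 in 7.35% of 449 genes and lower than that of H4C7 in 13.7% of 526 genes. For his2a1 it was lower in 57.3% of 178 genes.

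Linker histones bind where DNA enters and leaves the nucleosome. The 3 genes named hon summed to 1212, 1289.7, 1359 and 1230.0 CPM in replicates 1 to 4, and hon110 led them at 551 ± 25.5 CPM (SD, n = 4). Their median was 509 CPM. All 3 varied beyond counting error, against 25.7% of all genes tested and 55.5% of those in the abundance range of the core histone genes. All 3 were highest in replicate 3, as were 25.8% of all genes tested and 26.9% of those in the core histone range. The core histone sum over the linker histone sum was 1.34, 1.29, 1.25 and 1.36, a mean of 1.31 ± 0.0511. Both sums were highest in replicate 3 and lowest in replicate 1.

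Genes for DNA synthesis had another order of libraries. The 13 S-phase genes, for PCNA, MCM, origin recognition and ribonucleotide reductase proteins, summed to 1236, 1182, 1099 and 1169 CPM, lowest in replicate 3 and highest in replicate 1. In this list 11 of 13 genes varied beyond counting error, against the same 25.7% and 55.5%, and RNRL1, for a ribonucleotide reductase subunit, led at 245 ± 10.1 CPM. The list's median was 75.0 CPM. The core histone sum over the S-phase sum was 1.32, 1.40, 1.54 and 1.43 in replicates 1 to 4, a mean of 1.42 ± 0.0930 (SD, n = 4). In replicate 3, 10 of the 13 S-phase genes were at their lowest and 1 was at its highest, while 3 of the 6 core histone genes were at their highest and none at its lowest. Of all 22752 genes tested, 30.4% were lowest and 25.8% highest in replicate 3, and of the 4141 genes in the abundance range of the core histone genes 36.4% were lowest and 26.9% highest. Over all genes tested, 5847 varied beyond counting error with all libraries, 3074 without replicate 3 and 4563 to 5193 without another library.

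Genes for proteins that load and bind nucleosomes were, like the S-phase list, lowest in replicate 3 as sums. The 9 nucleosome assembly genes were detected in full and 5 varied beyond counting error, near the 55.5% of genes in the core histone range. Their median was 58.8 CPM, and they summed to 743, 747, 684 and 738 CPM. All 9 were lowest in replicate 3, against 30.4% of all genes tested and 36.4% of those in the core histone range. Their leader was nfa101, a nucleosome assembly factor gene, at 205 ± 5.30 CPM. The 9 include a histone gene, cenH3, for the H3 variant of centromeres, which stood at 14.5 ± 1.01 CPM. The 5 genes named nfd, for high mobility group proteins, summed to 386, 384, 351 and 382 CPM, with a median of 93.2 CPM and nfd101 at 104 ± 3.65 CPM, and 2 of them varied beyond counting error. Replicate 3 also had the highest library total, at 26829395 counts, and the part of depth in its low list sums was not tested.

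**Figure D5:**
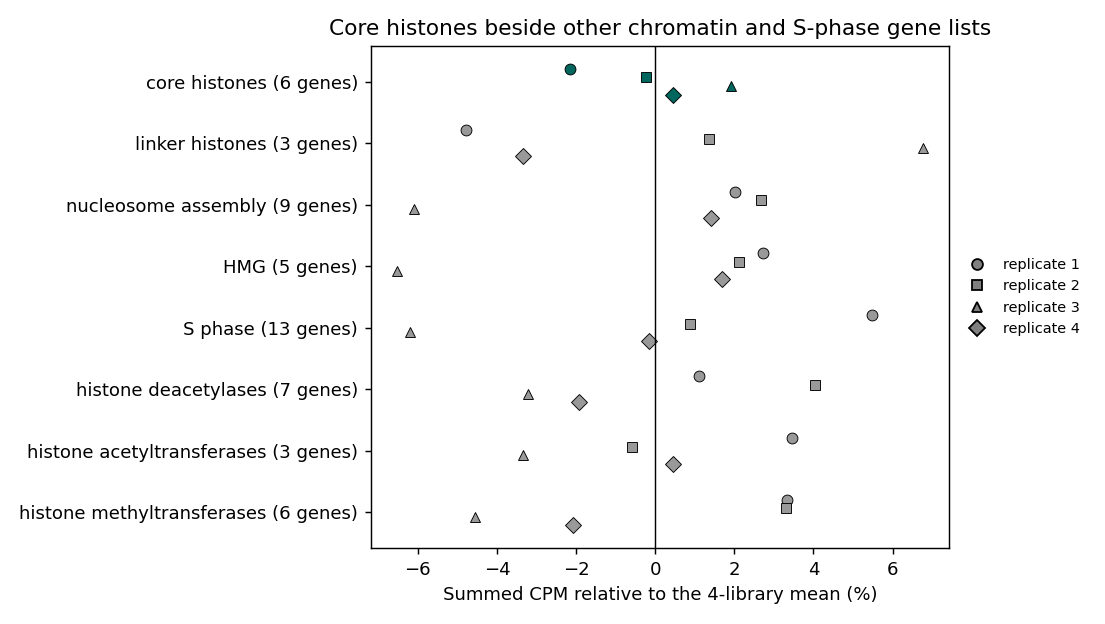
Summed CPM of each gene list in each library, in percent of the list's mean over 4 libraries (horizontal axis), with a symbol for each replicate. Core and linker histones are highest in replicate 3, where nucleosome assembly, HMG and S-phase genes are lowest, at -6.10%, -6.53% and -6.21%.

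Genes for enzymes that modify histone tails were also lowest in replicate 3 as sums, but fewer of the single genes were. Lowest there were 2 of 7 deacetylase, 1 of 3 acetyltransferase and 3 of 6 methyltransferase genes. Of all genes tested 30.4% were lowest there, and 36.4% of those in the core histone range. The 7 histone deacetylase genes were all detected, with HDA108 highest at 81.3 ± 4.29 CPM, and 1 varied beyond counting error. All 3 histone acetyltransferase genes were detected, led by hag101 at 67.8 ± 2.92 CPM, and 1 varied beyond counting error. All 6 histone methyltransferase genes named sdg were detected, led by sdg101 at 88.7 ± 1.19 CPM, and 2 varied beyond counting error. These counts, like the 2 of 5 nfd genes, stand beside 25.7% of all genes tested. The sums of these lists ran from 239.7 to 258, from 125 to 134 and from 189.9 to 206 CPM over the libraries. Their medians were 35.1, 42.5 and 22.7 CPM, in that order of lists.

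The summed core histone profile over the 4 libraries was nearly flat, and many genes matched it. Of 4404 genes at or above the level of H3C2, 224 came within a root mean square difference of 0.02 log2 units. The nearest were LOC100280323 (0.00242), LOC100193061 (0.00464), LOC100501869 (0.00567), LOC100383700 (0.00604) and LOC100280588 (0.00695), to which the gene table gives no function. The linker histone genes were at 0.0372 (hon110), 0.0568 (hon102) and 0.102 (hon101), against a median of 0.0576 over the 4404 genes. The S-phase genes among the 4404 ran from 0.0170 (orc4) to 0.120 (MCM6). Over 4 replicates of 1 condition such likeness is a description of these libraries.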

How the data were processed

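The deposited values are estimated counts per gene, neither scaled nor transformed, keyed by NCBI gene number. The joint table and the tables of single libraries hold the same values. Tools named without a role, per the submitters' processing notes, were STAR 2.7.10b, HTSeq, UMI-tools, SAMtools, deepTools, and Trimmomatic 0.36 and 0.39. Per the labels' protocols, libraries were strand-keeping, carried molecular identifiers, and had plant ribosomal RNA removed from 1 µg of RNA. The sources used here do not give the genome build, the strand setting, the use of the identifiers in counting or the treatment of shared reads.

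CPM was computed on library totals. Counting error, in the Wilson intervals and the chi-square test alike, takes each read as an independent molecule. Counts were rounded to whole numbers for the chi-square test and for edgeR 4.0.16 and DESeq2 1.42.0 in R 4.3.3, after filterByExpr, with adjustment over all genes at 0.05. Of 48174 gene numbers, 48127 matched the gene table, used for names and neighbours only. On simulated data for 22752 genes the edgeR test found 46% of genes given an extra CV of 20% and 84% of those given 40%, with 3 false calls; these genes were drawn from those averaging over 500 counts. The members, lists and tests were chosen with earlier results of these data known. Named genes are the members, the leader of each list, the 5 nearest profiles, and others chosen after their values were seen. These others are SCR, PIN1a, rtcs, wox5B, plt1, plt2, lac3, cenH3, hon101, hon102, orc4, MCM6 and LOC103639304. Levels per length, protein relatives and promoter motifs were planned, but lengths, proteins and promoters were not used here.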

Additional observations from a re-analysis of the deposited data

Results flagged for a closer look

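A single library lay apart by Dixon's test of the gap to its nearest neighbour in 4 of 50 values tried, where chance flags about 1 in 20 and many of these values share genes. The level of histone2b1 in replicate 3 was 207 CPM, and the other 3 libraries averaged 202 CPM. Dixon's test does not weigh counting error, and the CV of histone2b1 was 1.01 times that of counting error. The share of H3C2 in the counts of the 6 core histone genes was 3.45% in replicate 4, and the other 3 averaged 3.29%. Its 95% Wilson interval in replicate 4, 3.27% to 3.63%, overlapped those of the other libraries. The summed nucleosome assembly genes stood at 684 CPM in replicate 3, and the other 3 averaged 743 CPM. The summed high mobility group genes stood at 351 CPM in replicate 3, and the other 3 averaged 384 CPM.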

How the results depend on the processing

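Member levels moved by less than their SD between replicates with TMM or DESeq2 scaling. With a pseudocount of 1 CPM, his2b2 over H3C2 moved to 2.92 on the log2 scale, by more than its SD. Leaving out a library (for shares and list sums, chosen after seeing the data) cannot move a mean of 4 by 1 SD, so it says nothing about the stability of levels, shares, ratios or sums. With H2B as the mean of its 3 genes, the log2 ratio turned to -0.28 over H2A, and was 0.99 over H4 and 2.62 over H3. All 6 genes stayed detected at 0.5 CPM and at 10 counts in every library. The number of core histone genes beyond counting error was 3 under each scaling, filter and rounding tried and 2 to 3 with a library left out. For all genes that number was 3074 to 5193 with a library left out, lowest without replicate 3. The number of genes varying more than genes of equal abundance was 9, but 494 when no expression filter was applied, 174 by DESeq2's outlier rule, 2 when edgeR's prior was not robust and 2 to 100 with a library left out (lowest without replicate 2, highest without replicate 3). These held none of the 6 histone genes in any of these settings. Non-whole values fell in 0 to 1 of the 6 genes with a library left out, 0 without replicate 4. The cause of these moves in the counts over all genes was not tested. The settings planned for levels per length and for protein relatives were not run. H3C2, with the fewest counts, had the least power to show spread. No paired analysis was possible because the series has 1 group.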
